A study of Mus musculus with 6 samples.

Results

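The genes examined here encode the enzymes that convert lactate and pyruvate and the carriers that move lactate across the fiber membrane. They were taken by symbol from the deposited gene table and comprise Ldha, Ldhb, Ldhd, Slc16a1, Slc16a3 and Bsg, 6 of the 24411 genes listed. RNA was measured in the soleus (Sol), a slow fiber-dominant muscle, of 3 WT and 3 LSD1-mKO C57BL/6 mice that had taken part in voluntary wheel running (VWR). Each mouse gave 1 library, and the series has no sedentary group. WT mice carried floxed Lsd1 (gene symbol Kdm1a) without CreERT2. LSD1-mKO mice were homozygous for floxed Lsd1 and carried TgACTA1-CreERT2, a tamoxifen-inducible Cre under the human ACTA1 promoter that acts in muscle fibers, so other cells of the muscle keep the gene. Both groups were 8 weeks old at the start and could use a wheel during 38 days. Both received tamoxifen (75 mg/kg, 5 days) once familiarization, which took 3 days, was over, and running was then recorded for 30 days. Before tissue was taken, mice in this protocol had no wheel access and were fasted for 6 h. The study asked how loss of LSD1 in muscle fibers alters gene expression in the trained Sol.

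L-lactate dehydrogenase is a tetramer of LDHA and LDHB subunits. LDHA is the main form in fast glycolytic fibers and favors the reduction of pyruvate to lactate, whereas LDHB is the main form in heart and slow oxidative fibers and favors the oxidation of lactate to pyruvate. LDHD is a mitochondrial enzyme that oxidizes D-lactate. Lactate crosses the membrane together with a proton through MCT1, encoded by Slc16a1 and known for lactate uptake in oxidative fibers, and through MCT4, encoded by Slc16a3 and known for lactate release from glycolytic fibers. Both carriers need basigin, the product of Bsg, to reach the membrane.

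The mRNAs of LDHA and LDHB are related but distinct sequences, and the difference decides whether a short read can be assigned to one of them. Over 986 aligned coding bases of the longest coding transcripts, 720 (73.0%) were identical, and the longest identical run was 18 bases, well below the read length of 75 bases. The stretch that holds this run is given below 5′ to 3′, with identical bases in capitals (bases 756 to 833 of the Ldha coding sequence and 672 to 749 of the Ldhb coding sequence, GENCODE vM21). In this stretch, 62 of 78 bases were identical.
Ldha: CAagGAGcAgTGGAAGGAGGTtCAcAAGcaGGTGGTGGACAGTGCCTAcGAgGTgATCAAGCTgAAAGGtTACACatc
Ldhb: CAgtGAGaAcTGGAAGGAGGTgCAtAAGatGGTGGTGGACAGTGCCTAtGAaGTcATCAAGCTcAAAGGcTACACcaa

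Processed pseudogenes carried more of these sequences than the paralogs shared with each other. Of the 75-base windows of the Ldhb transcript, 206 of 1230 (16.7%) also occurred in the pseudogene Gm5514, and 91 of 1741 windows of Ldha (5.23%) occurred in 4 pseudogenes. Slc16a1, Slc16a3, Bsg and Ldhd shared 0 windows with other genes. None of the 5 pseudogenes has a row in the count table, so the Ldhb and Ldha counts are uncertain to the extent that such reads were dropped or assigned to the parent gene. The pair of primers that the study used for Ldhb mRNA (5′-TCTTCCAACACATCCACCAG-3′ and 5′-GTCCCGAACAACAAGATCACT-3′) bounds a 116-base product in the coding sequence, and both primers also match Gm5514 exactly.

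The study linked Ldhb to the nuclear receptor ERRγ, the product of Esrrg, and the promoters of both L-lactate dehydrogenase genes are therefore shown. Each window holds the 250 bases upstream of a RefSeq start site (GRCm38.p6), 5′ to 3′ in the direction of the gene. Capitals mark AGGTCA on either strand in Ldhb (read here as TGACCT) and CACGTG, the E-box core that HIF-1 and MYC family factors can use, in Ldha.
Ldhb, chr6:142507958-142508207, minus strand: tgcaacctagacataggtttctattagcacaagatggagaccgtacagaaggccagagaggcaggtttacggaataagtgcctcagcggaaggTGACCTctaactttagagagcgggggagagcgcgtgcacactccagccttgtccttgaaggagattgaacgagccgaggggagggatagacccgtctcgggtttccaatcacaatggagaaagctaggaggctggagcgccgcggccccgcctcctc
Ldha, chr7:46845554-46845803, plus strand: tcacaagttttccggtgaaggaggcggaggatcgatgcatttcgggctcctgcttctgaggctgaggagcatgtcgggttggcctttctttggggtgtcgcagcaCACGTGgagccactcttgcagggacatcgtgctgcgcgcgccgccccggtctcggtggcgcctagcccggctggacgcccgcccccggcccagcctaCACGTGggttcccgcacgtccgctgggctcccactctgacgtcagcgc

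The Ldhb window held AGGTCA once, beginning 157 bases before the start, and did not hold AAGGTCA, the extended half-site of the estrogen-related receptors, which contains AGGTCA. Among 32851 windows of this length in the RefSeq table, 14.0% held AGGTCA and 4.08% held AAGGTCA on either strand. The Ldha window held CACGTG at 145 and 48 bases before the start, and CACGTG occurred in 6.02% of all windows. A second Ldha start site, with the window chr7:46846832-46847081, held neither motif. CACGTG also occurred once in the windows of Slc16a1, 200 bases before the start, and of Ldhd, 139 bases before it. The Slc16a3 window held only the shorter ACGTG, which is part of CACGTG and occurred in 16.6% of all windows, at 27 and 14 bases before the start. These matches describe the letters of the windows and not the binding of a factor.

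The 6 libraries held 8940206 to 13798059 estimated counts, and TMM scaling factors ran from 0.929 to 1.07. Levels are given as TMM-normalized counts per 1000000 (CPM). The quasi-likelihood test of edgeR was applied to the 12828 genes that passed its expression filter, with an adjusted p under 0.05 as the threshold. All 6 lactate genes passed the filter. The targeted gene Kdm1a was at 40.5, 38.2 and 33.6 CPM in WT and at 14.6, 16.6 and 16.6 CPM in LSD1-mKO. Its mean was thus 42.6% of that in WT, with a log2 difference of -1.23 (SE 0.11, adjusted p = 0.0160). The adjusted p of Kdm1a was above the threshold, between 0.111 and 0.209, when WT replicate 2 or any one LSD1-mKO mouse was left out. Nothing in the labels pairs the mice, and the smallest two-sided p of an exact permutation test over the 20 assignments of 3 and 3 mice is 0.1.

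None of the 6 lactate genes differed between the genotypes past the threshold. This count of 0 stands beside 0.0156% of all tested genes called. At an unadjusted p under 0.05 in edgeR, 0 of 6 lactate genes passed, against 6.4% of all tested genes. DESeq2 and limma voom also called 0 of 6 at the adjusted threshold. Their unadjusted p was under 0.05 for Ldhb in DESeq2 (0.0271) and for Slc16a3 in DESeq2 (0.0397) and limma voom (0.0451). At that level DESeq2 had 349 genes higher and 228 lower among all 12828, and limma voom had 448 and 361. The fitted level was higher in LSD1-mKO for 4 of the 6 genes (Ldhb, Ldhd, Slc16a3 and Bsg) and lower for Ldha and Slc16a1, while 45.2% of all tested genes were fitted higher. The median log2 fold change was 0.12 over the 6 genes, with a range of -0.07 to 0.64, and -0.02 over all tested genes. The 3 values of one genotype lay outside those of the other in 0 of 6 lactate genes, against 12.7% of all tested genes.

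**Figure D1:**
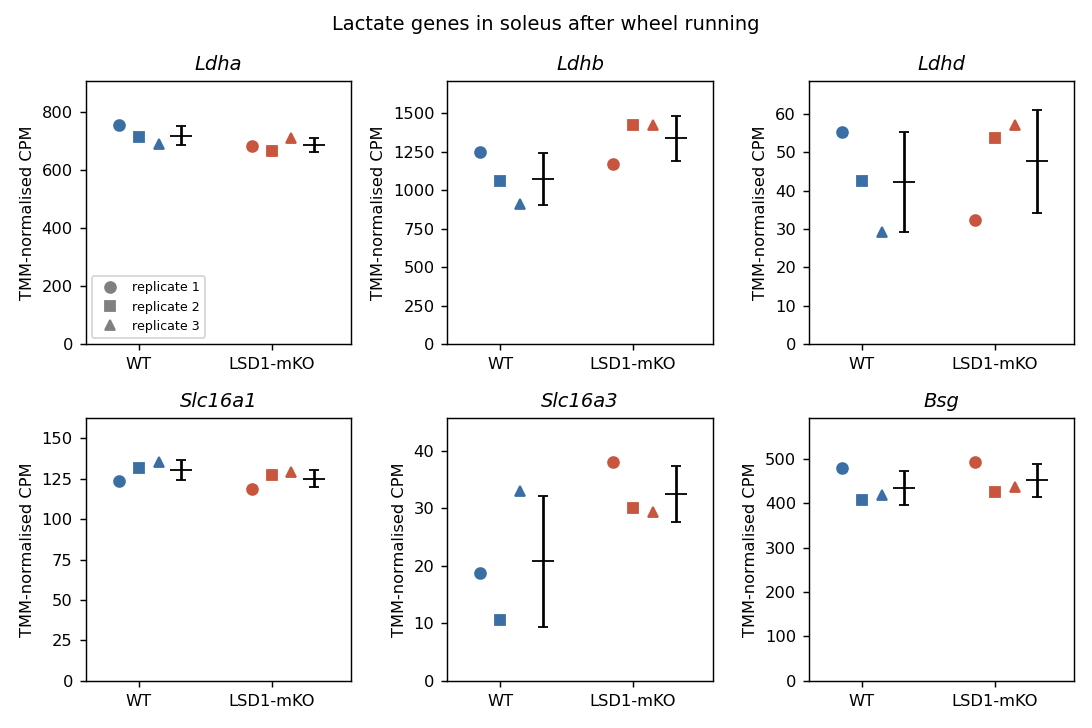
TMM-normalized CPM of the 6 lactate genes in each Sol library, on linear axes that start at 0. Blue points are WT and red points LSD1-mKO mice, shapes give the replicate number, and the bars beside them are the mean ± SD (n = 3). The genotypes overlap in every panel. Ldhb in LSD1-mKO replicates 2 and 3 lies above all WT mice, and the WT values of Slc16a3 are more widely spread than the LSD1-mKO values.

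Ldhb (chr6:142490249-142507957, minus strand, GRCm38) was the most abundant of the 6 transcripts. Its level was 1246, 1062 and 909 CPM in WT replicates 1 to 3 and 1169, 1424 and 1422 CPM in LSD1-mKO replicates 1 to 3. LSD1-mKO replicates 2 and 3 were above all WT mice, whereas LSD1-mKO replicate 1 was below WT replicate 1, so the groups overlapped. The means were 1072 ± 169 and 1338 ± 146 CPM (SD, n = 3), or 125% of WT. The log2 fold change was 0.32 (SE 0.14, 95% interval -0.01 to 0.65), with an unadjusted p of 0.0563 and an adjusted p of 0.766 in edgeR, and an exact permutation p of 0.2. The interval reaches from about no difference to a level 1.57-fold that of WT.

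Whether the genotypes overlapped for Ldhb depended on the scale, a check chosen after seeing the data. On transcripts per 1000000 (TPM), which divides by transcript length and sums to the same total in each library, Ldhb was at 1952, 1937 and 1570 in WT and at 1967, 2416 and 2415 in LSD1-mKO. The lowest LSD1-mKO value was then just above the highest WT value, and Ldhb was 1 of 6 lactate genes without overlap, against 11.5% of all tested genes. With CPM scaled by library size alone, Ldhb was higher and Ldha lower in LSD1-mKO without overlap, against 11.8% of all tested genes.

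Ldha (chr7:46841475-46855627, plus strand) varied little. Its level was 754, 711 and 688 CPM in WT and 682, 665 and 710 CPM in LSD1-mKO, and the groups overlapped. The means were 718 ± 33.9 and 686 ± 23.0 CPM (SD, n = 3), and the SD was 4.72% and 3.35% of the mean. The log2 fold change was -0.07 (SE 0.09, 95% interval -0.27 to 0.14; adjusted p = 0.909), so that the interval spans levels from 0.827-fold to 1.10-fold those of WT.

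Ldhd (chr8:111623785-111630374, minus strand) was far less abundant and more variable. It was at 55.2, 42.4 and 29.1 CPM in WT and at 32.3, 53.6 and 57.1 CPM in LSD1-mKO. Low and high mice occurred in both groups, and the SD was 30.9% of the mean in WT and 28.2% in LSD1-mKO. Counting error was 3.68% to 5.52% of a value, and thus smaller than the spread between mice. The log2 fold change was 0.18 (SE 0.26, 95% interval -0.43 to 0.78; adjusted p = 0.918) and was -0.03 without WT replicate 3. Ldhd overlaps Znrf1 on the other strand, and the strand setting of the counting is not given in the sources used here.

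Of the carriers, Slc16a1 (chr3:104638668-104658462, plus strand) was at 124, 131 and 136 CPM in WT and at 119, 127 and 129 CPM in LSD1-mKO. The 6 values lay close together, with overlapping groups and means of 130.2 ± 6.14 and 125 ± 5.48 CPM (SD, n = 3). Its log2 fold change was -0.06 (SE 0.08, 95% interval -0.24 to 0.13; adjusted p = 0.911).

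Slc16a3 (chr11:120948480-120960868, plus strand) was at 18.7, 10.6 and 33.0 CPM in WT and at 38.1, 30.0 and 29.4 CPM in LSD1-mKO. WT replicates 1 and 2 were below all LSD1-mKO mice, but WT replicate 3 was above 2 of them. The SD was 54.6% of the mean in WT and 14.9% in LSD1-mKO, around means of 20.8 ± 11.4 and 32.5 ± 4.84 CPM (n = 3). The lowest library held 118 counts of Slc16a3, a counting error of 9.21%, so counting covered only a small part of the spread among WT mice. The log2 fold change was 0.64 (SE 0.34, 95% interval -0.13 to 1.41; adjusted p = 0.773), and the exact permutation p was 0.3. The size of this difference rested on single WT mice, since it was 1.17 without WT replicate 3 and 0.32 without WT replicate 2.

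Bsg (chr10:79704491-79711969, plus strand) was at 478, 408 and 418 CPM in WT and at 493, 424 and 436 CPM in LSD1-mKO. In each genotype 1 mouse was higher than the other mice, and the groups overlapped. The log2 fold change was 0.05 (SE 0.10, 95% interval -0.19 to 0.29; adjusted p = 0.935), and it was -0.01 without LSD1-mKO replicate 1.

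Per transcript length, the 6 genes kept one order in 6 of 6 mice. In WT, mean levels were 1820 ± 216 TPM for Ldhb, 879 ± 46.7 for Ldha, 631 ± 12.4 for Bsg, 65.6 ± 7.43 for Slc16a1, 41.0 ± 10.8 for Ldhd and 10.6 ± 5.88 for Slc16a3 (SD, n = 3). In LSD1-mKO they were 2266 ± 259, 834 ± 29.6, 652 ± 50.1, 62.4 ± 3.06, 46.3 ± 13.3 and 16.5 ± 2.37 TPM in the same order. Bsg exceeded Slc16a1 by 8.93 to 12.0 times within a library. The steps from Ldha to Bsg (1.16 to 1.47 times) and from Slc16a1 to Ldhd (1.15 to 2.39 times) were narrow in some mice. Ldhd exceeded Slc16a3 by 1.61 to 7.61 times, but by 0.701 to 3.31 times with the mean length of the coding transcripts in place of the longest one, so the order of this last pair depends on the length chosen.

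The ratio of Ldhb to Ldha does not depend on the scaling of libraries, and the mixture of both subunits is what distinguishes the lactate dehydrogenase of slow and fast fibers. The ratio of TPM within a library was 2.30, 2.08 and 1.84 in WT and 2.39, 2.98 and 2.79 in LSD1-mKO. Every LSD1-mKO value exceeded every WT value, although LSD1-mKO replicate 1 and WT replicate 1 were close. The mean ratio was 2.07 ± 0.229 in WT and 2.72 ± 0.303 in LSD1-mKO (SD, n = 3), a difference of 0.39 on the log2 scale (SE 0.13) or 1.31-fold. The exact permutation p was 0.1, the smallest that 3 against 3 mice allow, and 0.4 after adjustment over the 4 ratios compared, so the ratio did not pass the threshold. Ldhb made up 69.7%, 67.5% and 64.8% of the summed TPM of Ldha and Ldhb in WT and 70.5%, 74.9% and 73.6% in LSD1-mKO. Ldhb was thus the larger share in 6 of 6 mice. Of the 15 pairs that the 6 genes form, Ldhb to Ldha was the 1 pair whose ratio did not overlap between the genotypes. The share over pairs of all tested genes was not computed, and 11.5% of single genes did not overlap on TPM. The count therefore does not set this pair apart.

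The ratio of Slc16a1 to Slc16a3, MCT1 against MCT4, was 6.48, 12.1 and 4.02 in WT and 3.06, 4.15 and 4.31 in LSD1-mKO. WT replicates 1 and 2 were above all LSD1-mKO mice, and WT replicate 3 lay among them. The difference was -0.84 on the log2 scale (SE 0.49; exact permutation p = 0.3, 0.6 after adjustment over the 4 ratios). Slc16a1 was the larger of the carrier transcripts in 6 of 6 mice, and Slc16a3 made up 7.62% to 19.9% of their summed TPM in WT and 18.8% to 24.6% in LSD1-mKO.

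**Figure D2:**
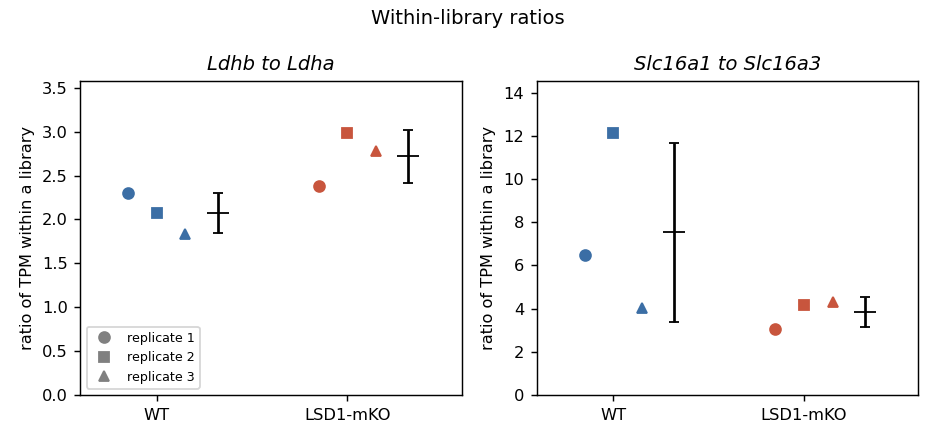
Ratio of TPM within each library for Ldhb to Ldha (left) and Slc16a1 to Slc16a3 (right), on linear axes that start at 0. Points are single mice (WT blue, LSD1-mKO red, shapes by replicate number) and bars the mean ± SD (n = 3). The Ldhb to Ldha ratio is 1.84 to 2.30 in WT and 2.39 to 2.98 in LSD1-mKO without overlap, whereas the ratios of the carriers overlap.

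The remaining ratios overlapped between the genotypes. Bsg exceeded the sum of Slc16a1 and Slc16a3 by 7.15 to 9.72 times in WT and 7.79 to 9.06 times in LSD1-mKO (log2 difference -0.01, SE 0.15; exact permutation p = 1). The summed TPM of both carriers was 0.0235 to 0.0356 of the summed TPM of Ldha and Ldhb in WT and 0.0243 to 0.0280 in LSD1-mKO (log2 difference -0.14, SE 0.19; exact permutation p = 0.7, 0.933 after adjustment over the 4 ratios).

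Esrrg was at 147, 125 and 116 CPM in WT and at 267, 208 and 282 CPM in LSD1-mKO. The genotypes did not overlap, and the log2 fold change was 0.96 (SE 0.14) with an adjusted p of 0.162 in edgeR, above the threshold. The study, which used DESeq2 for these libraries, reported significantly higher Esrrg mRNA in trained LSD1-mKO Sol by RNA-seq and qRT-PCR. It also reported more ERRγ protein in trained LSD1-mKO Sol than in trained WT Sol. By qRT-PCR, it further found higher mRNA of known ERRγ targets and of genes with an ERRγ motif in trained LSD1-mKO Sol. Esrrg was highest in LSD1-mKO replicate 3 and lowest in WT replicate 3, and Ldhb was likewise lowest in WT replicate 3. LSD1-mKO replicate 1, however, had more Esrrg than LSD1-mKO replicate 2 and less Ldhb. Esrra, which encodes the related receptor ERRα, had overlapping groups and a log2 fold change of -0.03 (adjusted p = 0.969).

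Of 21 other genes of lactate and pyruvate handling, 16 passed the expression filter and 0 were called. Among the 16, 6 were fitted higher and 10 lower in LSD1-mKO, and the median log2 fold change was -0.01, with a range of -0.44 to 0.65. Pkm, the pyruvate kinase gene that provides the substrate of LDHA, was at 1680 to 1968 CPM in WT and 1798 to 1825 CPM in LSD1-mKO. The subunits of the mitochondrial pyruvate carrier followed in abundance. Mpc1 was at 420, 374 and 412 CPM in WT and at 421, 463 and 438 CPM in LSD1-mKO, without overlap but with a log2 fold change of only 0.13 (adjusted p = 0.805). Mpc2 overlapped, at 250 to 320 CPM in WT and 274 to 293 CPM in LSD1-mKO.

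Glo1 and Hagh, the glyoxalases that form D-lactate upstream of LDHD, had log2 fold changes of 0.14 and -0.03. The values were -0.06 for Nptn, a relative of basigin, -0.13 for Gpt2 and -0.00 for Gpt, which convert pyruvate to alanine, and -0.28 for Pcx, the pyruvate carboxylase gene. For Car14, a carbonic anhydrase, and Uevld, which has a domain like that of lactate dehydrogenase, they were -0.00 and 0.22, with adjusted p of 0.998 and 0.777.

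**Figure D3:**
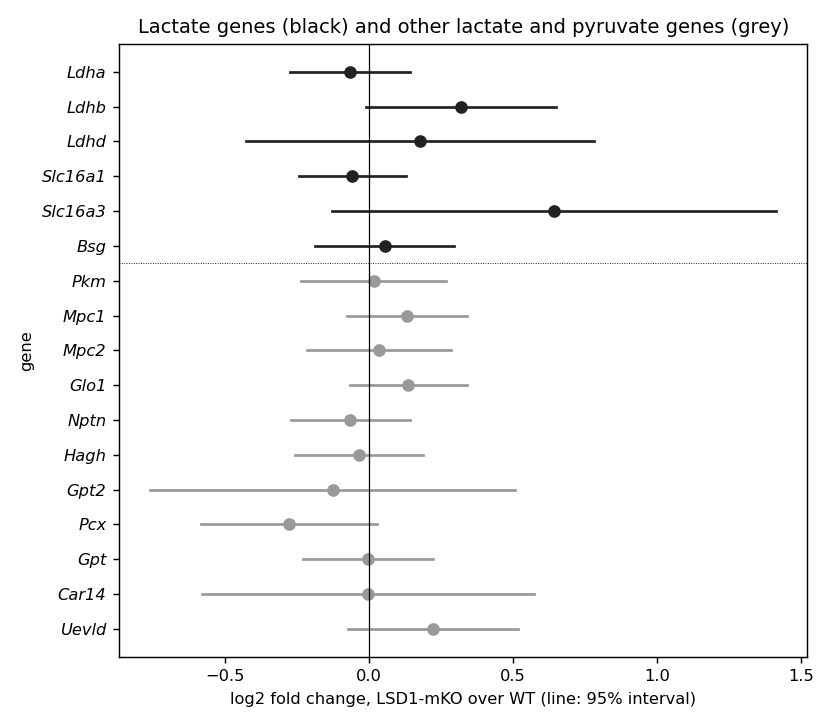
Log2 fold change, LSD1-mKO over WT, from edgeR for the 6 lactate genes (black) and 11 other abundant genes of lactate and pyruvate handling (grey). Lines are 95% intervals without adjustment for the number of genes. Every interval drawn includes 0, and the interval of Slc16a3 is the widest.

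Other members of both families were scarce in Sol. The testis form Ldhc had 1 count over the 6 libraries, and Ldhal6b had 1 to 3 counts in each library. Slc16a7, which encodes the high-affinity carrier MCT2, was at 0.121 to 1.26 CPM in WT and 0.724 to 1.78 CPM in LSD1-mKO, and Emb, which encodes embigin, the chaperone of MCT2, was at 1.57 to 9.51 and 3.11 to 6.14 CPM. The lactate receptor gene Hcar1 was at 0.482 to 1.17 CPM in WT and 0.652 to 1.09 CPM in LSD1-mKO. All 10 glycolysis genes tested were uncalled, with 8 fitted higher and a median log2 fold change of 0.05. Aldoa, the aldolase gene, was at 4143 to 5262 CPM in WT and 4763 to 5183 CPM in LSD1-mKO, and Pfkm, the muscle phosphofructokinase gene, at 1668 to 2203 and 1607 to 1964 CPM.

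The markers of muscle fibers were high in all libraries, led by Acta1 (skeletal actin) and Myh7 (slow myosin) with 32177 to 40894 and 11233 to 15151 CPM over the 6 mice. Muscle fiber markers summed to 69334 to 88409 CPM in WT and 73921 to 80578 CPM in LSD1-mKO. Markers of fibroblasts differed more between mice. Their sum was 1329, 3437 and 4395 CPM in WT and 2801, 1361 and 1488 CPM in LSD1-mKO, 6 of 6 markers were fitted lower in LSD1-mKO (median -0.73 on the log2 scale), none was called, and none was at 0 in every library. In whole muscle, fewer cells of a type and less RNA per cell cannot be told apart.

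Ldhb and Ldhd were highest in the mice with the lowest fibroblast markers, a comparison chosen after seeing the data. WT replicate 1 and LSD1-mKO replicates 2 and 3 had the 3 lowest sums of fibroblast markers, and the same 3 mice had the 3 highest levels of both Ldhb and Ldhd. This order was not particular to these genes. Of the muscle fiber markers, however, only Ckm was highest in the same 3 mice. Acta1, for example, was at 33667 and 33973 CPM in LSD1-mKO replicates 2 and 3 and at 37681 CPM in LSD1-mKO replicate 1. The same 3 mice were also highest for all 10 glycolysis genes except Hk2 and Pgk1. Aldoa, for example, was at 5262, 5183 and 5113 CPM in them and at 4143 to 4763 CPM in the other mice. Within WT, Ldhb fell in the order 1246, 1062 and 909 CPM as the fibroblast sum was 1329, 3437 and 4395 CPM. The part of the fibroblast markers in the Ldhb and Ldhd levels was not tested. Immune markers were lowest in the same 3 mice, with sums of 21.7 CPM in WT replicate 1 and 26.9 and 36.2 CPM in LSD1-mKO replicates 2 and 3, against 60.7 to 92.9 CPM in the other mice, and 4 of 4 tested immune markers were fitted lower in LSD1-mKO. The sums for endothelial markers (471 to 674 CPM in WT, 486 to 593 CPM in LSD1-mKO), red blood cells (202 to 535, 260 to 420 CPM), adipocytes (128 to 201, 143 to 180 CPM) and Schwann cells (141 to 157, 136 to 160 CPM) overlapped.

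**Figure D4:**
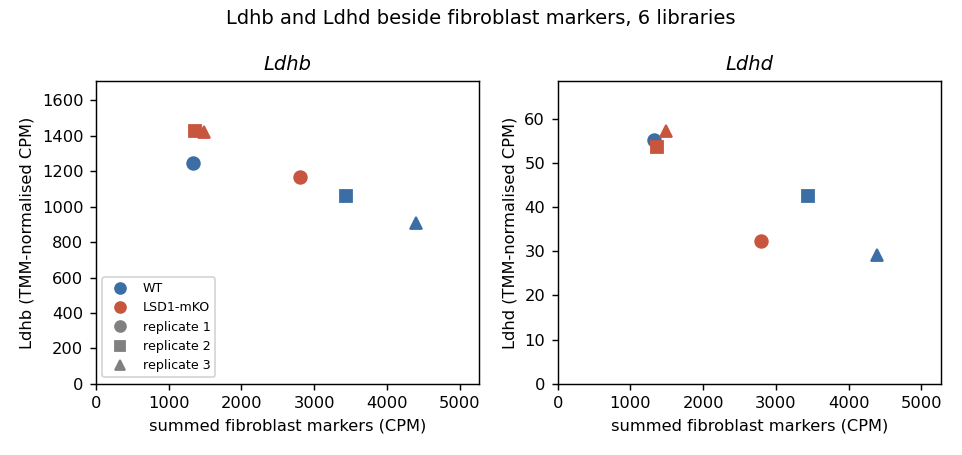
Ldhb (left) and Ldhd (right) in TMM-normalized CPM against the summed CPM of 6 fibroblast markers in the same library, on linear axes from 0. Points are single mice (WT blue, LSD1-mKO red, shapes by replicate number). The 3 libraries with fibroblast sums of 1329 to 1488 CPM hold the 3 highest values of both genes.

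Fiber-type markers were compared because LDHA and MCT4 are known in fast fibers and LDHB and MCT1 in slow ones. Fast fiber genes (11 tested, 4 fitted higher, median log2 fold change -0.04, range -0.49 to 1.50) and slow fiber genes (8 tested, 7 fitted higher, median 0.16, range -0.05 to 0.31) had 0 genes called. Actn3, which encodes the fast Z-disc protein alpha-actinin-3 and is named here after its values were seen, was at 91.9, 63.6 and 198 CPM in WT and at 497, 165 and 341 CPM in LSD1-mKO, with overlapping groups. It was the only fast fiber gene at an unadjusted p under 0.05, with a log2 fold change of 1.50 in edgeR (SE 0.48, unadjusted p = 0.0128, adjusted p = 0.636). Of the most abundant, Myh2, the type IIA myosin gene, and Atp2a1, the fast calcium pump gene, had log2 fold changes of -0.25 and -0.00, and Atp2a2, the slow pump gene, had 0.31 (adjusted p = 0.777). Over the 6 mice, the mean log2 CPM of the fast genes minus that of the slow genes was -1.09, -1.42 and -1.11 in WT and -1.14, -1.80 and -0.98 in LSD1-mKO.

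None of the 4 relations tested with this fiber measure passed an exact permutation test over 720 orders. The log2 Ldhb to Ldha ratio had a Pearson r of -0.369 (permutation p = 0.475) and a Spearman rho of -0.143 (permutation p = 0.803), and r was 0.694 without WT replicate 2 and LSD1-mKO replicate 2, the 2 mice farthest from the median. Ldha had r = 0.544 (permutation p = 0.281) and rho = 0.543 (permutation p = 0.297), with r = 0.316 without these mice. Ldhb had r = -0.243 (permutation p = 0.646) and rho = -0.0286 (permutation p = 1), and r = 0.710 without them. Slc16a3 had r = 0.167 (permutation p = 0.775) and rho = -0.0857 (permutation p = 0.919), and r = -0.240 without them. The permutation p adjusted over the 4 relations was 0.775 for each r and 1 for each rho. Within genotypes, taken as deviations from the genotype means and permuted over 36 arrangements (a check chosen after seeing the data), r was -0.394 for the log2 Ldhb to Ldha ratio, 0.543 for Ldha, 0.369 for Slc16a3 and -0.163 for Ldhb. The exact permutation p was 0.556, 0.25, 0.333 and 0.75 in this order, and 0.667 to 0.75 after adjustment over the 4 relations.

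The genes whose log2 CPM followed each lactate gene most closely over the 6 mice were listed among 10210 genes with a mean of at least 5 CPM, as a description. For Ldhb these were Cd99l2, Dexi and Hrasls (r = 0.996, 0.995 and 0.993), and for Ldha they were Srp72, Pex14 and Tti2 (r = 0.983, 0.980 and 0.980). Dtx2, Ttpal and Dnm2 were closest to Slc16a1 (r = 0.985, 0.976 and 0.972), and B230219D22Rik, Ahcyl1 and Ssb to Slc16a3 (r = 0.985, 0.980 and 0.969). No gene was on the lists of more than 1 lactate gene. Each r rests on 6 libraries, in which the genes compared share depth and cell makeup.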

How the data were processed

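The members and gene lists were chosen with earlier results of these data known. Libraries of poly(A) RNA were sequenced single-end at 75 bases, and the authors aligned the reads to mm10 with STAR. The values deposited by the authors are estimated counts, not normalized, with a column for each mouse, in which 8.33% to 9.94% of the values of a library are not whole; the counting tool, annotation and strand setting are not given in the sources used here. A second deposited table holds the authors' own DESeq2 comparison (mean, log2 fold change, standard error, statistic and p-values) and was not used. The count table lists 24411 genes, 27 of them with symbols turned into dates, 2 repeated symbols and 0 mitochondrially encoded genes. Libraries were compared in pairs by a chi-square test, and no pair was as alike as draws from one library would be (9.89 to 23.6 per gene). Whether the mice were littermates is not given, and p-values measure the spread between these libraries.

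Counts were rounded and analysed in R 4.3.3 with edgeR 4.0.16 (TMM, filterByExpr by genotype, quasi-likelihood test, Benjamini-Hochberg adjustment over 12828 genes, threshold 0.05). DESeq2 1.42.0, voom in limma 3.58.1, other scalings, filters, a replicate block and omission of each mouse were alternatives, and the steps were tested on simulated data. TPM used the length of the longest protein-coding transcript of a gene (GENCODE vM21), on GRCm38, the build also called mm10. Of the symbols, 23350 matched directly, 677 through older symbols and 384 not at all, and 99.7% of the counts had a length. The log2 ratios of TPM and single values were compared by exact two-sided permutation tests in SciPy 1.17.1. Promoters came from RefSeq for the 5 members with an entry; Bsg had none. Named genes were all members, Kdm1a, Esrrg, Esrra, up to 12 other lactate and pyruvate genes by mean CPM, the 3 closest genes by correlation for 4 members, and the 2 most abundant genes of the other lists. Some genes that this rule names are not reported here. Ldhc, Ldhal6b, Slc16a7, Emb and Hcar1 were named after their values were seen. Intervals of counts cover counting error only, since PCR copies are not independent molecules.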

Additional observations from a re-analysis of the deposited data

How the results depend on the processing

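The 6 lactate genes stayed uncalled under every alternative run, with adjusted p from 0.215 to 1.00 over 84 comparisons, of which 82 kept the direction of the log2 fold change. The exceptions were Ldhd, at -0.034 without WT replicate 3, and Bsg, at -0.013 without LSD1-mKO replicate 1. Omitting each mouse in turn gave -0.10 to -0.03 for Ldha, 0.21 to 0.44 for Ldhb, -0.03 to 0.41 for Ldhd, -0.09 to -0.02 for Slc16a1, 0.32 to 1.17 for Slc16a3 and -0.01 to 0.13 for Bsg. The Ldhb to Ldha ratio stayed higher in LSD1-mKO (log2 difference 0.31 to 0.48) and the Slc16a1 to Slc16a3 ratio lower (-1.22 to -0.43). The ratio of Bsg to both carriers ranged from -0.12 to 0.10, with values of 0.10 without WT replicate 1, 0.03 without LSD1-mKO replicate 2 and 0.01 without LSD1-mKO replicate 3, and that of carriers to dehydrogenases from -0.27 to 0.03 (0.029 without WT replicate 3). With the fiber measure, r ranged from -0.707 to 0.518 for the Ldhb to Ldha ratio (0.518 without LSD1-mKO replicate 2), 0.0639 to 0.649 for Ldha, -0.108 to 0.752 for Slc16a3 (-0.108 without WT replicate 2) and -0.595 to 0.492 for Ldhb (0.492 without LSD1-mKO replicate 2). With summed fiber lists r was -0.168 for Slc16a3, and without the 2 farthest mice it was 0.694 for the ratio, -0.240 for Slc16a3 and 0.710 for Ldhb. The causes were not tested.

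The number of lactate genes whose genotypes did not overlap was 0 on TMM CPM, 1 on TPM and 2 on CPM by library size, the last pair of scales chosen after seeing the data. Over all genes, 1 was called higher and 1 lower. DESeq2 called 33 and 9, limma voom called 2 higher, and testing without a filter on low counts called 8 and 3. Omitting 1 mouse gave 1 to 2 higher (2 without WT replicate 1) and 0 to 1 lower (0 without WT replicate 2 or any one LSD1-mKO mouse, where 352, 503, 289 and 222 genes were lower at an unadjusted p under 0.05). Deviations from the genotype means did not correlate positively between mice with the same number (correlations of -0.364, -0.0968 and -0.146). With 3 mice per genotype these values cannot decide whether mice shared a litter or a day of handling. With a replicate block, 1 gene was called higher and 0 lower, with 228 lower at an unadjusted p under 0.05, Kdm1a was at -1.23 (adjusted p = 0.299), and Ldha, Ldhb, Ldhd, Slc16a1, Slc16a3 and Bsg were at -0.07, 0.33, 0.18, -0.06, 0.77 and 0.05 (adjusted p = 0.980 for each). With 3 mice per group, the intervals of Ldhb and Slc16a3 leave differences of up to 1.57-fold and 2.66-fold undecided.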

Other observations

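Beyond the lactate carriers, the SLC16 family holds carriers of aromatic amino acids, creatine and other solutes. Of 10 such genes, 6 passed the expression filter, 4 of them fitted higher and 2 lower in LSD1-mKO, with 0 called and a median log2 fold change of 0.09. Slc16a10, which encodes the aromatic amino acid carrier TAT1, was at 16.3, 15.9 and 14.2 CPM in WT and at 18.2, 15.6 and 20.5 CPM in LSD1-mKO, with overlapping groups and a log2 fold change of 0.22 (adjusted p = 0.779). Slc16a14, Slc16a5 and Slc16a11 had 0 to 5 counts in each library.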
